A study of Homo sapiens with 4 samples.

Results

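LNCaP cells are a human line started from a prostate tumour that had spread to a lymph node. The cells, at passage 22, were transiently transfected with 2500 ng of a CRYM expression plasmid (2 libraries) or of the empty control plasmid of the same vector series, pReceiver-M72 (2 libraries). RNA was taken 48 h later, and both groups received the same lipid reagent and serum-containing medium, per the labels' protocols. The subject here is 7 genes that act around the G1 checkpoint, CDKN1A, CDKN1B, CDKN2D, BTG1, BTG2, MDM2 and CCND1. Of these 7, 6 had a locus in every library by name or by overlap with a stated hg19 span, out of 52291 loci joined over the 4 libraries, and all 6 passed the filter on low values. BTG1 had no such locus. BTG2 was named in every library, and CDKN2D in CRYM library 1 and empty vector library 1. CDKN1A, CDKN1B, MDM2 and CCND1 were named in none and were taken by overlap alone.

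Cells commit to division late in G1, when D-type cyclins with CDK4 and CDK6, and then cyclin E with CDK2, phosphorylate the retinoblastoma protein and release E2F factors. CCND1 encodes cyclin D1, the D-type cyclin most often overexpressed in tumours. Inhibitors oppose these kinases: CDKN1A (p21) and CDKN1B (p27) bind cyclin and kinase together, while CDKN2D (p19INK4d) binds CDK4 and CDK6. MDM2 is a ubiquitin ligase that marks proteins for degradation. BTG1 and BTG2 are related antiproliferative proteins that bind the CCR4-NOT deadenylase and speed the decay of messenger RNA.

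Levels are in FPKM, which divides the fragments of a locus by transcript length and by library size, so that genes can be compared with each other. A log2 difference is CRYM minus empty vector on the log2(FPKM + 1) scale, tested with limma over all 10093 tested loci with Benjamini-Hochberg adjustment, and a call is an adjusted p under 0.05. CRYM itself, whose locus carries no name and was taken as the single unnamed one between the loci named ANKS4B and CTD-2547E10.3, had 65.3 and 72.5 FPKM with the CRYM plasmid and 1.17 and 0.977 FPKM with the empty one, a log2 difference of 5.07 (limma adjusted p = 0.00253). With empty vector library 1 set to 1, depth came to 0.842 and 1.07 in the CRYM libraries and 1.15 in the other empty vector library, and the absolute depth is unknown. Of the 8 luminal prostate markers checked, 2 could be followed through all 4 libraries. HOXB13 had 110.3 and 114.1 FPKM in the CRYM libraries, against 128.4 and 127.7 in the empty vector libraries, and SPDEF had 46.8 and 48.0, against 86.9 and 84.5. Both were called lower (log2 difference -0.19, limma adjusted p = 0.0275 for HOXB13, and -0.84, limma adjusted p = 0.00517 for SPDEF), and their part in the differences below was not tested. INSM1, a neuroendocrine marker, was listed at 0 in 3 of the 4 libraries and at 0.0138 FPKM in CRYM library 2. CLDN5, an endothelial marker, had 0.136 to 0.276 FPKM and HLA-DRA, an immune marker, 1.56 to 2.40 FPKM over the 4 libraries. No basal or fibroblast marker of the lists could be followed. The labels call the 2 libraries of a group biological replicates but name no separate cultures, and the p-values reflect only how far these libraries spread, which may be technical. With 2 libraries against 2, an exact two-sided permutation test of a single value cannot go below p = 0.333. In bulk RNA, a change in the share of transfected or cycling cells and a change per cell cannot be told apart.

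Among the 6 genes with a value, BTG2 rose, CDKN1A, CDKN2D and CCND1 fell, and CDKN1B and MDM2 did not pass. Over all tested loci 33.3% were called in either direction, 15.7% higher and 17.7% lower. The groups did not overlap at 5 of the 6 genes, where the same held for 72.2% of all tested loci. Of the 3 inhibitors, CDKN1A and CDKN2D were called lower and CDKN1B was not called. CDKN1A and BTG2 were called in opposite directions. On rescaling to the same total FPKM, BTG2 had a log2 difference of 0.11 with no call, and CDKN1A -1.05 with a call. The median of all tested loci then lay between them, at -0.518. Under median-ratio and quantile scaling BTG2 had log2 differences of 0.67 and 0.70 and CDKN1A -0.45 and -0.36, each with a call. The median of all tested loci was 0.008 and -0.003 under these scalings.

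**Figure D1:**
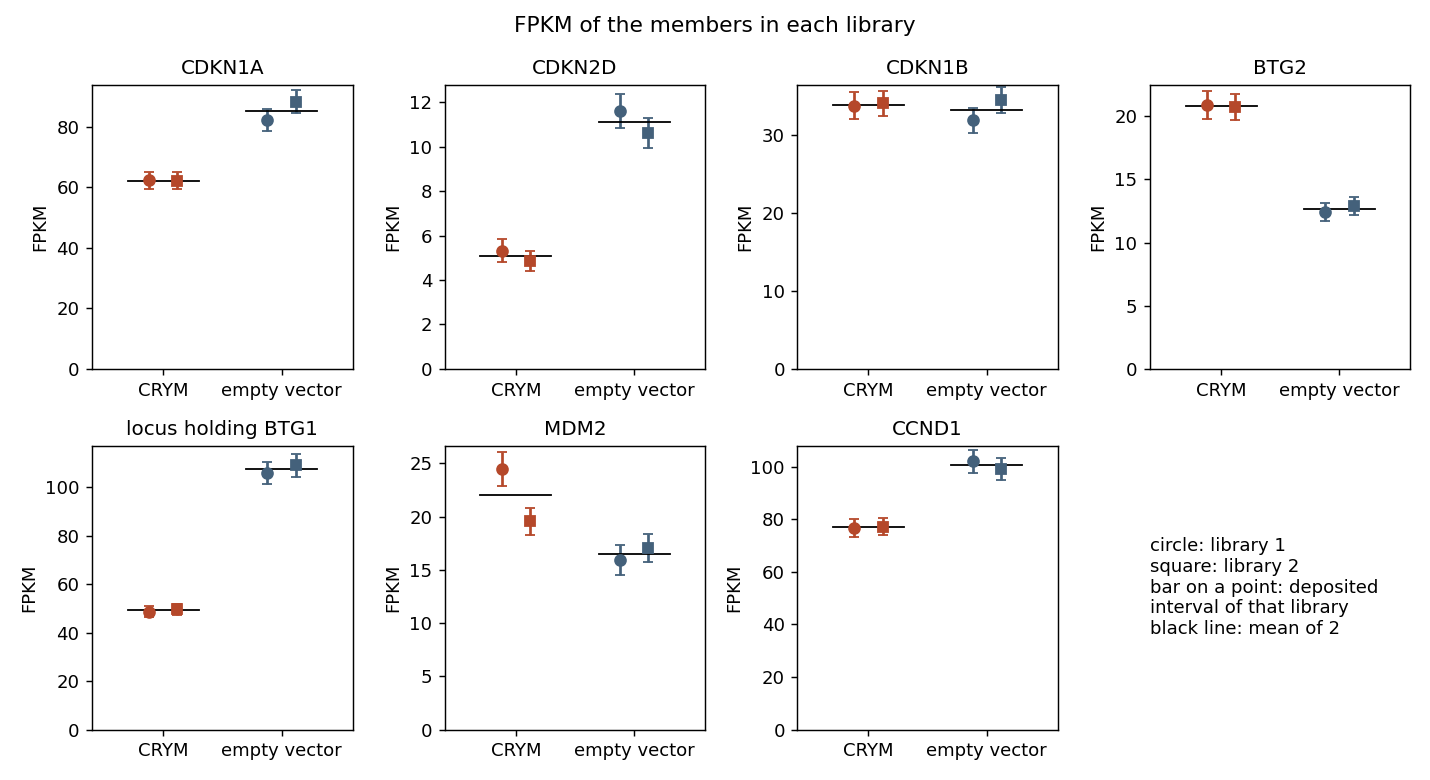
FPKM of each gene in the 2 CRYM libraries (left, red) and the 2 empty vector libraries (right, blue), from 0, with the deposited interval of each library as a bar and the mean of 2 as a black line. CDKN1A, CDKN2D, CCND1 and the locus holding BTG1 lie lower in both CRYM libraries, BTG2 and MDM2 lie higher, and CDKN1B overlaps.

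CDKN1A, the p21 inhibitor of cyclin and kinase complexes, fell 1.37-fold in CRYM cells. Its locus (hg19 chromosome 6, 36644305 to 36655116) had 62.3 and 62.3 FPKM in the CRYM libraries, against 82.3 and 88.4 FPKM in the empty vector libraries. Both CRYM libraries lay below both empty vector libraries, and the deposited intervals of the CRYM libraries, 59.4 to 65.2 and 59.5 to 65.0, did not reach those of the empty vector libraries, 78.7 to 86.0 and 84.5 to 92.3. The group means were 62.3 ± 0.0315 FPKM in CRYM cells and 85.4 ± 4.29 FPKM in empty vector cells (SD, n = 2 each). The log2 difference was -0.45 (SE 0.0456, limma adjusted p = 0.0161), and 24.2% of tested loci had a larger difference in either direction. The single tested locus within 100 kb, unnamed, had 119.2 and 116.2 FPKM in CRYM cells and 122.0 and 126.5 in empty vector cells, and was not called.

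The stretch before the start of CDKN1A is shown to set it beside that of BTG2, which was called in the other direction. It is the RefSeq window of GRCh38.p14, chr6:36678464-36678763 on the plus strand, 250 bases before to 50 after the annotated start, with the GC box GGGCGG in capitals.
CDKN1A: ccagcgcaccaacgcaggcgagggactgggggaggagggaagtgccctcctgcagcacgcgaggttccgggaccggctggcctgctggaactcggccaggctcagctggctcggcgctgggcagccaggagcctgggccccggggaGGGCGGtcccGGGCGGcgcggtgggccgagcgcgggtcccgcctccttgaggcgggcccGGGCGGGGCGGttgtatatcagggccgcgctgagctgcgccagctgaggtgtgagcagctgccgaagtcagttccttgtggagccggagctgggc
The window holds 4 GC boxes, of which the last 2 share a base, and 15786 of 35116 RefSeq windows of this length hold at least 1 on either strand. Its GC content was 74.3%, where the median window had 58.7%.

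CDKN2D, which inhibits CDK4 and CDK6, fell the most of the 6 genes, 2.19-fold. The locus (chromosome 19, 10677138 to 10679735) had 5.31 and 4.87 FPKM in the CRYM libraries, against 11.6 and 10.6 FPKM in the empty vector libraries. The groups stood well apart, at 5.09 ± 0.309 FPKM in CRYM cells and 11.1 ± 0.693 FPKM in empty vector cells (SD, n = 2 each). The log2 difference was -0.99 (SE 0.0721, limma adjusted p = 0.0103), a size that 6.9% of tested loci exceeded. Of 7 tested loci within 100 kb, none was called lower in CRYM cells.

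The corresponding window of CDKN2D is shown beside its fall, at chr19:10568930-10569229 on the minus strand of GRCh38.p14, again with GC boxes in capitals, here on both strands.
CDKN2D: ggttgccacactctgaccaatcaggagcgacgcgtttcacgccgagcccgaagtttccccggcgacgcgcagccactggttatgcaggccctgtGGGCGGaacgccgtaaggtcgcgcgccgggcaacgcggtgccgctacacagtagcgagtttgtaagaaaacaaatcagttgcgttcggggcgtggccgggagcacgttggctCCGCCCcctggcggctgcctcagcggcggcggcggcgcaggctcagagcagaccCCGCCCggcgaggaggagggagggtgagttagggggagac
It holds 3 GC boxes and no match on either strand to TATAAA, the E-box CACGTG, the CRE TGACGTCA, the AP-1 motif TGANTCA or the E2F motif TTTNGCGC.

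CDKN1B, the p27 inhibitor, had 33.8 and 34.1 FPKM in the CRYM libraries, against 31.9 and 34.5 FPKM in the empty vector libraries. Both CRYM values lay between the empty vector values. The means were 33.9 ± 0.206 FPKM in CRYM cells and 33.2 ± 1.85 FPKM in empty vector cells (SD, n = 2 each). The log2 difference of 0.03 had a 95% interval of -0.13 to 0.19 and a limma adjusted p of 0.674, so a fold, on the FPKM + 1 scale, from 0.916 to 1.14 is within the interval. The locus (chromosome 12, 12867992 to 12875305) begins before the stated span, with an overlap of 0.684 of their union. Further short assembled loci, 61 to 325 bp long, overlapped the span. There were 1 and 6 of them in CRYM cells, and 3 and 2 in empty vector cells. With their FPKM added, the log2 difference of CDKN1B became 1.20 and still did not pass (limma adjusted p = 0.631), since a locus of 61 bp in CRYM library 2 is listed at 10322 FPKM.

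Set against CDKN1B, CDKN1A stood at 1.84 and 1.83 times its level in the CRYM libraries, against 2.58 and 2.56 times in the empty vector libraries. CDKN2D stood at 0.157 and 0.143 of the level of CDKN1B in the CRYM libraries, against 0.364 and 0.308 in the empty vector libraries. These ratios within a library do not change when a library is multiplied by a single factor. The groups did not overlap in either ratio, and the exact permutation p was 0.333 for each, the smallest possible here. How often such ratios separate over all loci was not computed, here or for the ratios below. Single tested loci were separated in 72.2% of cases.

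CCND1, which encodes cyclin D1, a D-type cyclin that acts with CDK4 and CDK6, fell 1.31-fold. Its locus (chromosome 11, 69455855 to 69469243, ending 1 base earlier in 2 libraries) had 76.7 and 77.1 FPKM in the CRYM libraries, against 102.0 and 99.1 FPKM in the empty vector libraries. The means were 76.9 ± 0.331 FPKM in CRYM cells and 100.6 ± 2.00 FPKM in empty vector cells (SD, n = 2 each). The log2 difference was -0.38 (SE 0.0259, limma adjusted p = 0.00937), and the groups did not overlap. The ratio of CCND1 to CDKN1A was 1.23 and 1.24 in the CRYM libraries, against 1.24 and 1.12 in the empty vector libraries, and there the groups were not separated (exact permutation p = 0.667). The ratio of CCND1 to CDKN1B was 2.27 and 2.26 in the CRYM libraries, against 3.20 and 2.87 in the empty vector libraries, with no overlap. A second unnamed locus that overlaps the end of CCND1 was listed at 0 in every library.

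At several loci, CDKN1A and CCND1 among them, the deposited intervals do not follow the FPKM. Each interval was read as 2 SD of counting error either way, and the fragments that this would take were computed. For CDKN1A the number of implied fragments was 1905 and 1988 in the CRYM libraries and 2055 and 2106 in the empty vector libraries, and for CCND1 it was 2090 and 2143, against 2181 and 2199. Scaled to equal depth, the implied fragments were 1.06 times the empty vector level for CDKN1A and 1.10 times for CCND1, although the FPKM ratios were 0.730 and 0.765. CDKN2D lay closer, with 415 and 478 implied fragments in CRYM cells, against 912 and 997 in empty vector cells, a ratio at equal depth of 0.528 beside an FPKM ratio of 0.458. The luminal markers showed such a gap too, with a ratio of implied fragments of 0.985 beside an FPKM ratio of 0.554 for SPDEF, and of 1.12 beside 0.876 for HOXB13. The intervals thus do not scale with the FPKM as counting error alone would, and the implied fragments are no count of reads. The part of this gap in the lower FPKM of CDKN1A and CCND1 was not tested.

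MDM2, the ubiquitin ligase, was higher in both CRYM libraries but did not pass. Its locus (chromosome 12, 69201956 to 69239214, or to 69239331 in CRYM library 2) had 24.5 and 19.5 FPKM in the CRYM libraries, against 15.9 and 17.0 FPKM in the empty vector libraries. The means were 22.0 ± 3.48 FPKM in CRYM cells and 16.5 ± 0.758 FPKM in empty vector cells (SD, n = 2 each). The CRYM libraries differed from each other more than the empty vector libraries did, without an overlap of the groups. The deposited intervals of CRYM library 2, 18.25 to 20.84, and of empty vector library 2, 15.7 to 18.34, did meet. The log2 difference was 0.39 (95% interval -0.03 to 0.80, limma adjusted p = 0.122). Its implied fragments, again no count of reads, were 924 and 913 in the CRYM libraries, against 516 and 663 in the empty vector libraries. Their ratio at equal depth was 1.79 beside an FPKM ratio of 1.34. Within each library, MDM2 stood at 0.393 and 0.314 of the level of CDKN1A in CRYM cells, against 0.194 and 0.193 in empty vector cells. The groups did not overlap in this ratio (exact permutation p = 0.333, the smallest possible). CDKN1A was itself called lower, so the ratio says little about MDM2 alone.

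A more abundant locus lies inside that of MDM2. RP11-611O2.5, which the files annotate as antisense (chromosome 12, 69235068 to 69237017), had 47.3 and 53.8 FPKM in the CRYM libraries, against 58.2 and 63.0 FPKM in the empty vector libraries. It was lower in both CRYM libraries without passing (log2 difference -0.26, 95% interval -0.54 to 0.02, limma adjusted p = 0.123). The ratio of MDM2 to it was 0.517 and 0.363 in CRYM cells, against 0.274 and 0.270 in empty vector cells. When FPKM was summed over all rows inside the MDM2 span, the log2 difference of MDM2 was -0.08 (limma adjusted p = 0.291) in place of 0.39. The library kit marks strand, but the sources used here do not give whether the quantification used it, so reads of MDM2 and of the antisense locus may not have been kept apart.

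**Figure D2:**
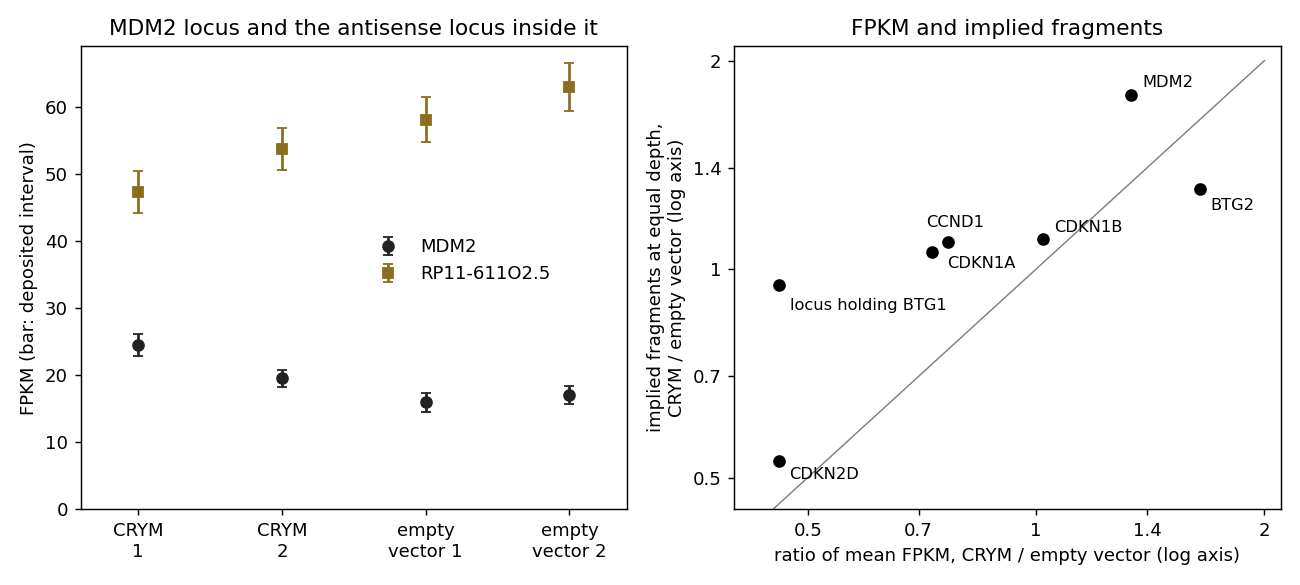
Left, FPKM of the MDM2 locus (circles) and of RP11-611O2.5 inside it (squares) in each library, with the deposited interval as a bar: MDM2 is higher and the antisense locus lower in both CRYM libraries. Right, for each gene, the ratio of mean FPKM, CRYM over empty vector, against the ratio of implied fragments at equal depth, both on log axes, with the line of equality. CDKN1B and CDKN2D lie closest to the line, CDKN1A, CCND1, MDM2 and the locus holding BTG1 well above it, and BTG2 below it.

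BTG2, the antiproliferative partner of CCR4-NOT, rose 1.64-fold and was the 1 gene of the 6 called higher. Its locus (chromosome 1, 203274619 to 203278730) carried its name in every library and had 20.9 and 20.7 FPKM in the CRYM libraries, against 12.4 and 12.9 FPKM in the empty vector libraries. All 4 values lay close to their group means, 20.8 ± 0.107 FPKM in CRYM cells and 12.6 ± 0.317 FPKM in empty vector cells (SD, n = 2 each). The log2 difference was 0.68 (SE 0.0341, limma adjusted p = 0.00676). With libraries rescaled to the same total FPKM it was 0.11 and the call ended (limma adjusted p = 0.263). With median-ratio scaling it was 0.67 and with quantile normalization 0.70, both with a call. The deposited intervals, 19.8 to 22.0 and 19.7 to 21.8 in the CRYM libraries, against 11.7 to 13.1 and 12.2 to 13.6 in the empty vector libraries, did not meet. The ratio of implied fragments at equal depth was 1.31.

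The window of BTG2, chr1:203305269-203305568 on the plus strand of GRCh38.p14, is the counterpart to that of CDKN1A. GC boxes on either strand are in capitals.
BTG2: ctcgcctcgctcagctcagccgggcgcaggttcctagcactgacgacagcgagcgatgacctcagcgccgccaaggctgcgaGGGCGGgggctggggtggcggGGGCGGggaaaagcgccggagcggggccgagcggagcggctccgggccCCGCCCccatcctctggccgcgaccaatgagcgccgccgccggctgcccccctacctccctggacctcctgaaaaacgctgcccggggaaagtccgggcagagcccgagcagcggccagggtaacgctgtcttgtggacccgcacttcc
It holds 3 GC boxes and no match to the other motifs named above, and its GC content was 73.3%. CCND1 has no entry in the table of windows.

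BTG1, the close relative of BTG2, could not be measured alone. Its stated span falls in a locus of 160918 bp (chromosome 12, 92378756 to 92539673) that is present at the same position in every library and carries no name. In the RefSeq table of GRCh38.p14, the long noncoding RNA LINC01619 overlaps BTG1, and the FPKM of the assembled locus does not separate the transcripts it holds. The locus had 48.7 and 49.7 FPKM in the CRYM libraries, against 105.9 and 109.0 FPKM in the empty vector libraries. It fell 2.18-fold, with a log2 difference of -1.11 (SE 0.0287, limma adjusted p = 0.00394), a size that 6.0% of tested loci exceeded. The implied fragments did not follow, at 1665 and 1786 in CRYM cells and 2035 and 2077 in empty vector cells, a ratio of 0.949 at equal depth. This locus was picked after its values were seen and is not counted among the 6 genes. The locus holding BTG1 stood at 2.33 and 2.40 times the level of BTG2 in the CRYM libraries, against 8.52 and 8.47 times in the empty vector libraries.

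By level, the order in CRYM cells was CCND1, CDKN1A, CDKN1B, MDM2, BTG2 and CDKN2D, from 76.9 to 5.09 FPKM, and the same order held in empty vector cells, from 100.6 to 11.1 FPKM. In CRYM cells the values of BTG2 lay between the 2 values of MDM2, so these neighbours in the order were not separated there. The values of the other neighbours in this order did not overlap in either group.

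The profiles most like those of the genes were sought among about 800 named protein-coding loci, by the distance between log2(FPKM + 1) values over the 4 libraries, each centred on its own mean. For BTG2 the nearest was CITED2, a transcriptional coactivator, with 41.9 and 41.7 FPKM in CRYM cells, against 25.3 and 25.7 in empty vector cells (distance 0.023), followed by BAMBI at 0.035. For CCND1 it was RNF26 at 0.014 and TRUB1 at 0.027, and for CDKN1A ARPC5L at 0.048 and FOXO6 at 0.056. CDKN1B was nearest to FAM210B at 0.027 and FOXO1 at 0.030. CDKN2D was nearest to PEBP1, which had 228.6 and 227.1 FPKM in CRYM cells, against 450.1 and 448.6 in empty vector cells (distance 0.105), and to FAM8A1 at 0.109. MDM2 was nearest to STARD8 at 0.108 and ENPP4 at 0.127. A profile of 4 libraries in 2 groups is close to a single number, so these distances mainly describe the size of the difference.

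Of 95 further genes of the pathway in 7 lists, 7 could be followed through all 4 libraries by a name in at least 1 of them, and 6 were tested, of which 1 was higher, 3 lower and 2 not past, where 15.7% of all tested loci were higher and 17.7% lower. Their median log2 difference was -0.17, against 0.01 over all tested loci. E2F1, which the retinoblastoma protein restrains, fell, to 10.4 and 10.85 FPKM in CRYM cells, against 23.9 and 22.7 in empty vector cells (log2 difference -1.07, limma adjusted p = 0.00609). TRIAP1, a small inhibitor of apoptosis, fell 1.14-fold (limma adjusted p = 0.0244). SESN2, a stress-induced regulator of mTORC1 signalling, averaged 9.26 ± 0.159 FPKM in CRYM cells and 11.7 ± 0.91 FPKM in empty vector cells (SD, n = 2 each, limma adjusted p = 0.0564). CUL1, the scaffold of the SCF ubiquitin ligases that degrade p27 among others, fell 1.12-fold (limma adjusted p = 0.0316). JUN, a component of AP-1, which can induce CCND1, rose, to 31.6 and 33.0 FPKM in CRYM cells, against 18.9 and 21.3 in empty vector cells (log2 difference 0.66, limma adjusted p = 0.0185). FOXO1, a forkhead transcription factor, had 2.29 and 2.27 FPKM in CRYM cells and 2.16 and 2.38 in empty vector cells (limma adjusted p = 0.962). Its deposited intervals were wide, 0.622 to 3.96 in CRYM library 1. The name CKS1B stands only at a locus of 240 bp on chromosome 5, listed at 0, while RefSeq places the gene on chromosome 1, so that is no value for it. No further CDK inhibitor, cyclin, CDK, BTG or TOB gene or CCR4-NOT subunit of the lists could be followed in this way, and these were not analysed here.

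**Figure D3:**
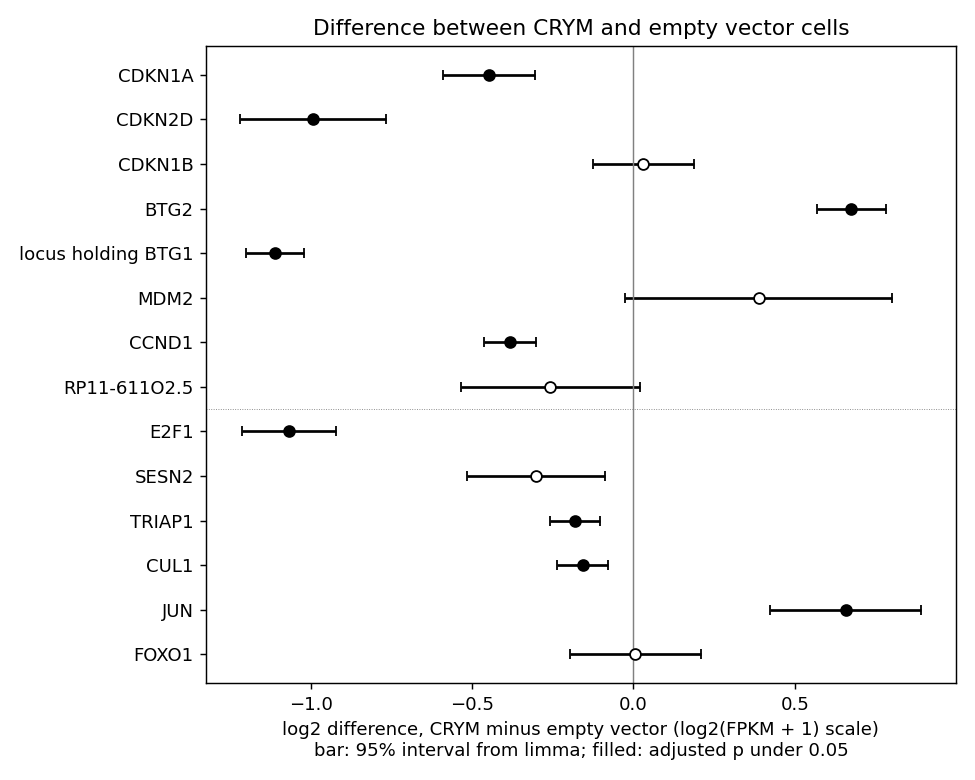
Log2 difference, CRYM minus empty vector, with the 95% interval from limma, for the 6 genes, the locus holding BTG1 and the antisense locus in MDM2 (above the dotted line) and for the 6 tested pathway genes (below). Filled points passed an adjusted p of 0.05: CDKN1A, CDKN2D, CCND1, E2F1, TRIAP1, CUL1 and the locus holding BTG1 to the left of 0, BTG2 and JUN to the right.

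The calls could not be checked by leaving libraries out, since such fits, and that with a replicate block, leave 1 residual degree of freedom. Even CRYM lost its call in them. With any 1 library left out, or with the replicate number as a block, limma called 0 loci (3628 to 3819 at an unadjusted p under 0.05), and CDKN1A, CDKN2D, CCND1 and BTG2 kept their direction. On rescaling each library to the same total FPKM, which moved the median of all loci to -0.518, BTG2 lost its call, MDM2 turned to -0.19 and CDKN1B to -0.56 with a call (limma adjusted p = 0.0118). BTG2 and MDM2 then lay above that median, CDKN1B slightly below it, and CDKN1A at -1.05, CDKN2D at -1.53 and CCND1 at -0.98 well below it. Median-ratio and quantile scaling kept the direction and the call of each of these genes.

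**Figure D4:**
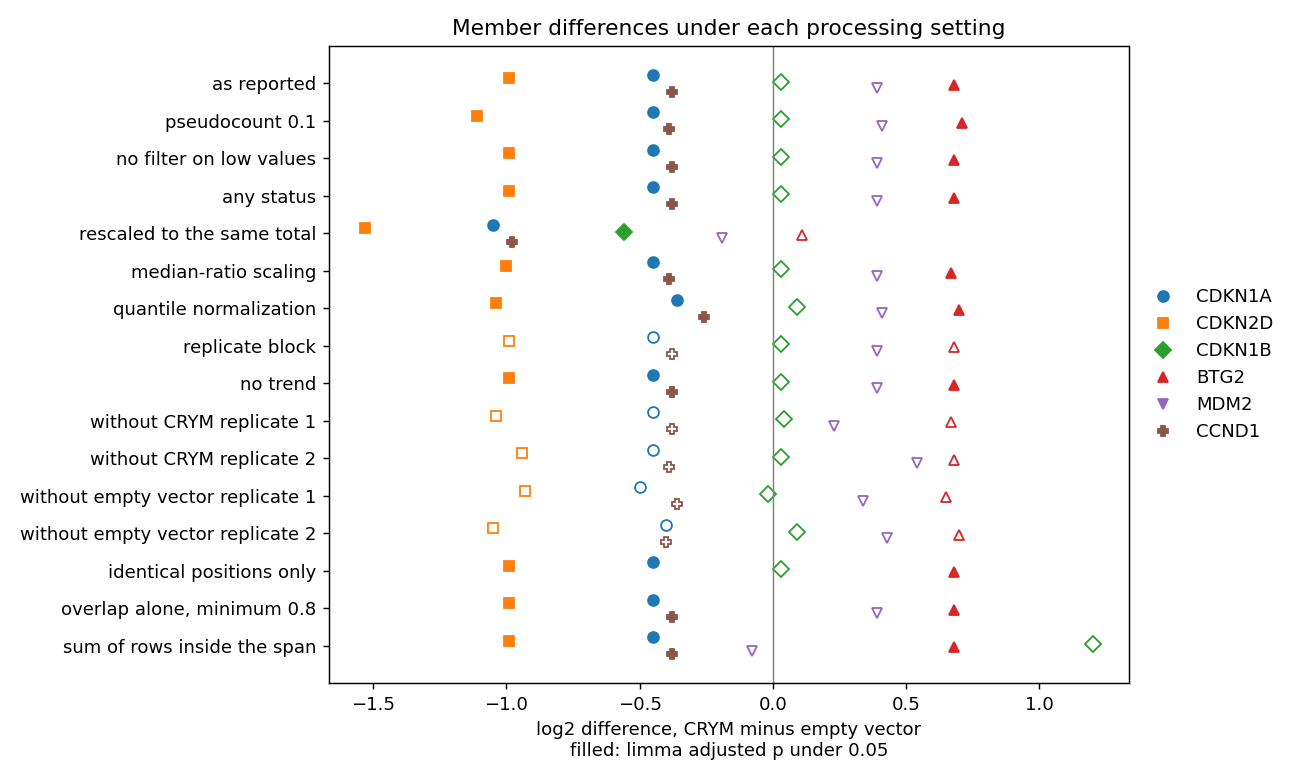
Log2 difference of each of the 6 genes, CRYM minus empty vector, under each processing setting, with filled points where the limma adjusted p was under 0.05. CDKN1A, CDKN2D and CCND1 stay left of 0 in every setting drawn and BTG2 right of it, while CDKN1B and MDM2 cross 0, and the points shift left together when libraries are rescaled to the same total.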

How the data were processed

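Messenger RNA of LNCaP cells was read as 50 bp single reads from a stranded kit, in 2 CRYM and 2 empty vector libraries, per the labels' protocols. Each library has a deposited table of FPKM, with interval bounds and a status, per the file headers. The submitters' processing notes name TopHat2 (2.1.1), Bowtie2 (2.2.9), Cufflinks (2.2.1), Cuffdiff, hg19 and GRCh37. Most loci carry no gene name.

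Loci whose positions matched in all 4 tables (52318) were joined, with 27 identifiers that occurred at several loci added up. A gene was found by name, or otherwise by the best overlap over union, 0.4 or more, with a stated hg19 span. MDM2 and CCND1, whose ends vary between libraries, entered as rows of their own. Positions start from 1.

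Because FPKM values are not counts, log2(FPKM + 1) was fitted with limma 3.58.1 in R 4.3.3 (trend, two-sided, Benjamini-Hochberg threshold 0.05), after requiring 1 FPKM in 2 libraries and an OK status in all 4. This scale understates changes of low genes. Stated folds are ratios of mean FPKM. Tested on simulated data with 2 libraries a group, the fit made a larger share of false calls than its threshold allows and missed most small changes. Far fewer loci were changed in the simulation than were called here, so its rates need not hold for these data. Single calls near the threshold are uncertain. Relative depth was read from loci of 60, 61 and 62 bp, at which values were multiples of 1 read within 0.02. Implied fragments read each deposited interval as counting error alone, which the FPKM ratios do not bear out at several loci. How the intervals were made is not stated in the labels. Tables were joined with Python 3.11.15, numpy 2.4.6 and pandas 2.3.3.

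The genes, lists and settings were chosen with earlier results of these data known. Named are the 7 genes, CRYM, up to 4 called members of each pathway list (otherwise the 2 most abundant) and the 2 nearest profiles of each tested gene. SESN2, FOXO1, CKS1B, RP11-611O2.5, the markers and the locus holding BTG1 were named after their values were seen. The alternatives were another pseudocount, no filter, any status, 3 scalings, a replicate block, no trend, each library left out and 3 ways to match loci. Some neighbouring-locus and motif results are not reported here.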

Additional observations from a re-analysis of the deposited data

How the results depend on the processing

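Leaving out CRYM 1, CRYM 2, empty vector 1 or empty vector 2 gave 0 loci called higher and 0 called lower by limma each time, with 3628 to 3817 loci at an unadjusted p under 0.05. Over these 4 fits the log2 difference was 5.0 to 5.15 for CRYM, -0.50 to -0.40 for CDKN1A, -1.05 to -0.93 for CDKN2D, -0.40 to -0.36 for CCND1, 0.65 to 0.70 for BTG2, 0.23 to 0.54 for MDM2 and -0.02 to 0.09 for CDKN1B, whose sign turned (-0.02) without empty vector library 1. Such fits have 1 residual degree of freedom and take the single library to be as variable as the pair. The replicate block left 0 calls higher and 0 lower in limma, 3819 loci having an unadjusted p under 0.05. CRYM was then at 5.07, CDKN1A at -0.45, CDKN2D at -0.99, CCND1 at -0.38 and BTG2 at 0.68, with adjusted p from 0.0569 to 0.0719. The labels do not say that equal numbers pair libraries, and the correlation of their deviations was 0.036. With no filter on low values 26478 loci were tested, 788 were higher and 1083 lower, and the 4 called genes stayed called. Rescaling to the same total FPKM gave 297 higher and 6257 lower loci, 4.53% of calls being higher in place of 47.0%, and moved the median of all loci to -0.518. BTG2 was then at 0.11 with no call, CDKN1B at -0.56 and MDM2 at -0.19, and the cause was not tested. The totals include very short loci, and at loci of 60 bp 1 read stood at 1613 to 2204 FPKM. Summing the rows inside each span put MDM2 at -0.08, since the antisense locus is then included. CDKN1B has no locus at an overlap of 0.8, and MDM2 and CCND1 have none at identical positions. The pseudocount, status, trend, median-ratio and quantile settings kept the direction and the call of each of the 6 genes.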
